A study of Mus musculus with 8 samples.

Results

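Transcripts of the mitochondrial respiratory chain and of ATP synthase were read in the hypothalamus of 10-week-old Nestin-Pex5-/- and wild type mice. The genes were chosen by symbol, as those that the probe annotation names Ndufa, Ndufb, Ndufc, Ndufs or Ndufv with a number, Sdha to Sdhd, Uqcr, Cox4 to Cox8 or Atp5. This gave 81 of the 18194 genes measured, with 35 in complex I, 4 in complex II, 8 in complex III, 17 in complex IV and 17 in complex V. The tissue came from 4 Nestin-Pex5-/- and 4 wild type mice without treatment, with 1 Affymetrix array per mouse, and the strain background was Swiss Webster. In Nestin-Pex5-/- mice a Cre recombinase under the Nestin promoter deletes floxed Pex5, the import receptor of peroxisomal matrix proteins, in cells that arise from neural progenitors, so that cells of other origin such as microglia and endothelium keep the gene. Whether the wild type mice carried a Cre or loxP allele is not given in the sources used here.

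The respiratory chain sits in the inner mitochondrial membrane. Complex I takes electrons from NADH and complex II from succinate, and both pass them through ubiquinone to complex III, from there through cytochrome c to complex IV, and finally to oxygen. Complexes I, III and IV pump protons, and complex V, the ATP synthase, uses the proton gradient to make ATP. Most subunits are encoded in the nucleus, and neurons depend heavily on this pathway for their ATP. Peroxisomes and mitochondria share the breakdown of fatty acids, and products of the peroxisomal steps pass on to mitochondria.

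Many promoters of these genes are known to hold sites of nuclear respiratory factor 1, a transcription factor of mitochondrial genes. RefSeq promoter windows of GRCm38.p6, from 250 bases before to 50 bases after the start, were found for 66 of the 81 genes. The letters GCGCATGC or, on the other strand, GCATGCGC were searched as the core of the factor's site, and the forms overlap where both stand together, as in the windows of Atp5k and Cox6a1. They stood in 9 of 71 windows (12.7%) of the respiratory chain genes and in 2.71% of all 32851 windows. The genes were Ndufa6, Ndufa8, Sdhb, Uqcr11, Uqcrc1, Cox6a1, Atp5g2, Atp5k and Atp5l. The windows of Atp5k and Atp5l are shown because these were the only members whose arrays did not overlap between the genotypes, that of Cox6a1 because its probe set had the highest value in complex IV, and that of Sdha as the member of complex II with the smallest p, which lacks these letters. Capitals mark GCGCATGC and GCATGCGC alone.
Atp5k (GRCm38.p6, chr5:108434350-108434649, minus strand): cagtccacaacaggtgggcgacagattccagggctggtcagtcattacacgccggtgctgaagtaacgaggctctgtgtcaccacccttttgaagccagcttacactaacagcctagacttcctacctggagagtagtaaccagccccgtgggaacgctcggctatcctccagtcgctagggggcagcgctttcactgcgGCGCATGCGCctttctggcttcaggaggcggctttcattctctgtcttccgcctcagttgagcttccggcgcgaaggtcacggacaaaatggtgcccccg
Atp5l (GRCm38.p6, chr9:44920693-44920992, minus strand): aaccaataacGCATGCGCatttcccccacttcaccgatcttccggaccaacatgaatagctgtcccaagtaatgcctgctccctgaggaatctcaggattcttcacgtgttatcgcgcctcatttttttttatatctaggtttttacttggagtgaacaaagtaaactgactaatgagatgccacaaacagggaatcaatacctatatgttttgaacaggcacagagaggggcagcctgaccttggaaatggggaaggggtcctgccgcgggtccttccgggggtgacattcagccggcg
Cox6a1 (GRCm38.p6, chr5:115348909-115349208, minus strand): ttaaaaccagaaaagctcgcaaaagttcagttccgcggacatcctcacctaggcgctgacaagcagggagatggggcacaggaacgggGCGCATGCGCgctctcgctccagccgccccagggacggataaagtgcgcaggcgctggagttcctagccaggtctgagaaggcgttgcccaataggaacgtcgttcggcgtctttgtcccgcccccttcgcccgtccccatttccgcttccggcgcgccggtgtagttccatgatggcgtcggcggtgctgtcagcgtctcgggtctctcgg
Sdha (GRCm38.p6, chr13:74350191-74350490, minus strand): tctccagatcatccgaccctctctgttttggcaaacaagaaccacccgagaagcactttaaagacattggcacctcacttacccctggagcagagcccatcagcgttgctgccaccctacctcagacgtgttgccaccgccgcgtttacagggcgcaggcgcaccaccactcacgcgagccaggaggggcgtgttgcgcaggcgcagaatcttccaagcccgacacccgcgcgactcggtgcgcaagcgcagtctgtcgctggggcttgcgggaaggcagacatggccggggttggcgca

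Counted from the start, the first match began at position -50 in Atp5k, at -162 in Cox6a1 and at -240 in Atp5l. The 9 genes with these letters had a median log2 fold change of -0.013, against -0.017 in the 57 whose window lacks them. Letters of other factors were searched in the same windows. CCATCTTG or its complement CAAGATGG, a core of the YY1 site, was in 7.04% of the members' windows and in 2.12% of all windows. TCAAGGTCA or TGACCTTGA, the site of the estrogen-related receptors, was in 2.82% and 0.423%, in Sdhd and Atp5g3 alone among the members. CCAAT or ATTGG was in 40.8% against 37.4%, and GGGCGG or CCGCCC, the Sp1 site, in 40.8% against 35.7%. A match of letters is a description of the window and not evidence that a factor binds there.

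All values below are RMA values on a log2 scale. In RMA, background is removed, the probe values of the arrays are brought to a common distribution and probes are combined by probe set. The medians of the resulting arrays still ran from 6.70 to 6.84. Where a gene had several probe sets, the brightest was taken. Over all genes, the first principal component separated the genotypes and the second set wild type replicate 4 apart from the other arrays. In this array the mean of 4 choroid plexus markers was 7.04, whereas wild type replicates 1 to 3 had 9.22 to 9.65. The mean of 6 oligodendrocyte markers was 12.18 to 12.64 in Nestin-Pex5-/- arrays, 12.42 in wild type replicate 4 and 11.59 to 11.85 in wild type replicates 1 to 3. None of the 6 was called by limma. At an unadjusted p under 0.05 all 6 were higher, with a median log2 fold change of 0.50. For comparison with this and the next lists, limma called 3.98% of all genes higher and 0.791% lower. With the same cut but no adjustment, the shares were 8.85% and 8.01%. Of 7 microglial markers 6 were called higher in Nestin-Pex5-/- hypothalamus, with list means of 9.51 to 9.93 against 7.96 to 8.21 in wild type, and so were 2 of 7 astrocyte markers. Of 13 neuronal markers 0 were called by limma (at an unadjusted p under 0.05, 1 higher and 2 lower), with means of 12.27 to 12.31 in Nestin-Pex5-/- and 12.27 to 12.36 in wild type arrays. Of 10 hypothalamic peptide genes 0 were called (at an unadjusted p under 0.05, 0 higher and 1 lower), and 9 had an estimate below 0, against 61.7% of all genes. Their median log2 fold change was -0.24, and their list means were 9.96 to 10.55 in Nestin-Pex5-/- and 10.13 to 10.49 in wild type arrays. Pex5 itself was at 8.67 ± 0.071 in Nestin-Pex5-/- and at 8.66 ± 0.038 in wild type mice (SD, n = 4 each; log2 fold change 0.011, adjusted p = 0.946 from limma). Whether its probe set lies in the deleted part is not known, so that it does not check the genotype labels.

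No gene of the respiratory chain or ATP synthase was called higher or lower in Nestin-Pex5-/- hypothalamus. With limma, 0 of 81 passed an adjusted p of 0.05, whereas 4.77% of all genes did (3.98% higher and 0.791% lower). Of the 813 genes whose mean value was at or above the lower quartile of the members, 11.42, 3.81% were called (3.44% higher and 0.369% lower). The smallest adjusted p of any member was 0.288, that of Ndufa4l2. At an unadjusted p under 0.05, limma gave 0 members higher and 1 lower, against 8.85% and 8.01% of all genes. A test of each gene on its own variance gave 0 higher and 4 lower, against 8.49% and 7.41% of all genes. After adjustment 0 members passed it, against 3.08% of all genes. All Nestin-Pex5-/- arrays lay above all wild type arrays in 0 members and below them in 2, against 6.63% and 4.51% of all genes (11.1% in either direction).

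The estimates lay close to 0 in both directions. The folds ran from 0.863 in Ndufa4l2 to 1.12 in Cox6a2, and the median log2 fold change was -0.017, with -0.033 over all genes. The estimate was below 0 in 53 and above 0 in 28 members, and it was below 0 in 61.7% of all genes and in 61.3% of the 813 bright genes. By complex the median log2 fold change was -0.014 in complex I, -0.047 in complex II, -0.026 in complex III, 0.0019 in complex IV and -0.024 in complex V. The mean of all members was 11.40, 11.42, 11.39 and 11.36 in Nestin-Pex5-/- replicates 7 to 10 and 11.42, 11.36, 11.40 and 11.49 in wild type replicates 1 to 4. The ranges of the genotypes overlapped, and a wild type array was the highest of all. In bulk tissue, a change in the share of a cell type and a change in RNA per cell cannot be told apart.

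**Figure D1:**
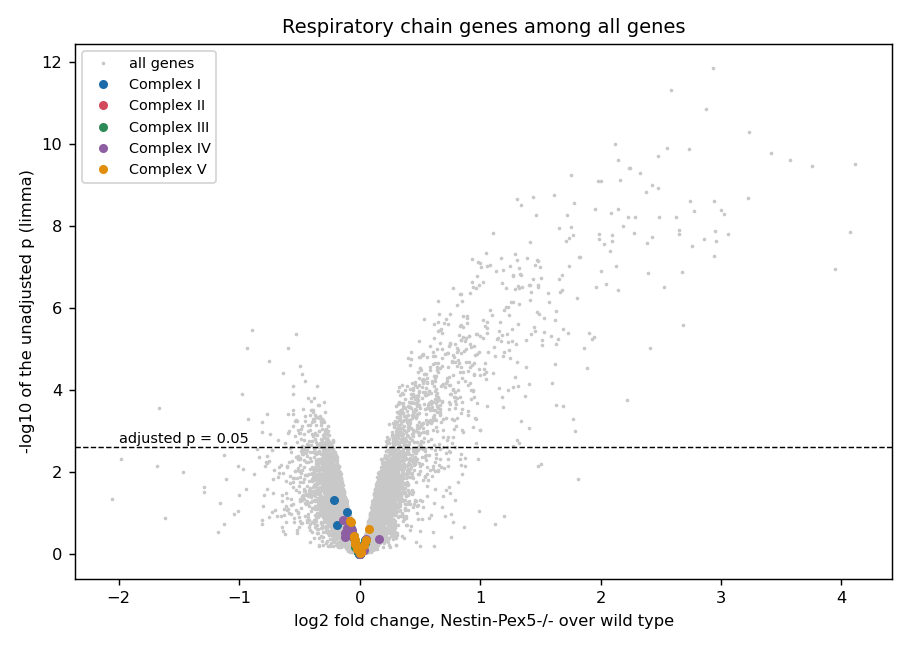
Difference between Nestin-Pex5-/- and wild type hypothalamus (log2 fold change, positive where higher in Nestin-Pex5-/-) against -log10 of the unadjusted p from limma, for all 18194 genes (grey) and the 81 respiratory chain and ATP synthase genes (coloured by complex). All coloured points lie below the dashed line that marks an adjusted p of 0.05, and their log2 fold changes run from -0.21 to 0.16.

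The intervals show how large a difference the 8 arrays would still allow. The 95% interval of the log2 fold change lay within ±0.25, or 1.19-fold either way, for 71 of the 81 members (87.7%). It did so for 41% of all genes and for 68.1% of the genes with values as high as those of most members. For 80 of the 81 it lay within ±0.5, or 1.41-fold. The exception was Cox6a2, with an interval from -0.28 to 0.60. The others outside ±0.25 were Ndufa4l2, Ndufb4, Ndufs5, Cox4i2, Cox6b2, Cox7a1, Cox7c, Cox8b and Cox8c. Smaller differences may not be detectable with 4 arrays per genotype.

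**Figure D2:**
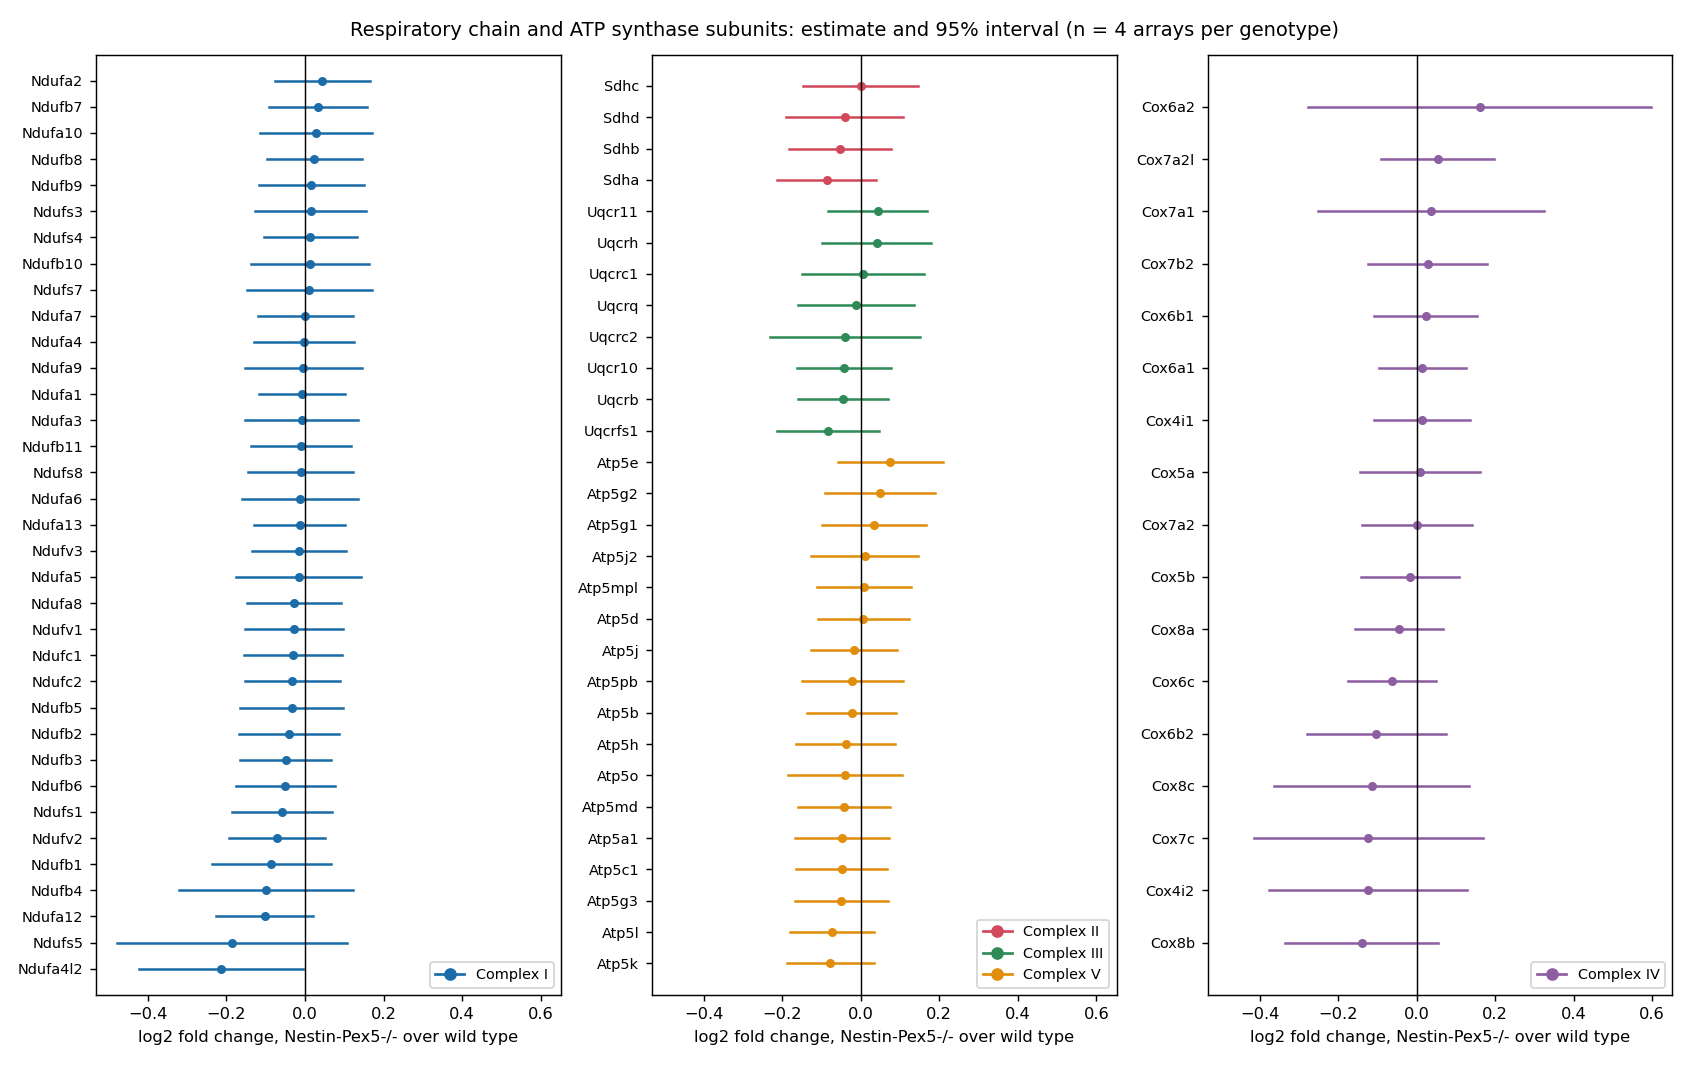
Log2 fold change (points, positive where higher in Nestin-Pex5-/-) with its 95% interval from limma (lines) for each of the 81 genes, by complex (n = 4 arrays per genotype). The intervals of 71 genes lie within ±0.25, and the widest, of Cox6a2, runs from -0.28 to 0.60.

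Complex I is the largest of the complexes, with core subunits that carry flavin and iron-sulphur clusters and many accessory subunits around them. Of the nuclear core subunits, Ndufv1, Ndufv2, Ndufs1, Ndufs3, Ndufs7 and Ndufs8 were measured, and their log2 fold changes ran from -0.071 in Ndufv2 to 0.014 in Ndufs3. The 11 accessory subunits of the A series ran from -0.10 in Ndufa12 to 0.044 in Ndufa2, and the 11 of the B series from -0.100 in Ndufb4 to 0.034 in Ndufb7. Among the 5 other accessory subunits Ndufs5 was the lowest, at -0.19 (standard error 0.13, adjusted p = 0.520 from limma). Its value was 11.04 in Nestin-Pex5-/- replicate 10 and 11.55 to 11.71 in the other 3, against 11.59 to 11.72 in wild type mice. Replicate 10 lay far below the other arrays, and the gene was picked out after its values were seen.

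Ndufa12, an accessory subunit of the arm that reaches into the matrix, had values of 12.33, 12.30, 12.31 and 12.28 in Nestin-Pex5-/- and of 12.39, 12.32, 12.44 and 12.49 in wild type arrays. Only wild type replicate 2 fell within the Nestin-Pex5-/- range. The log2 fold change was -0.10 (standard error 0.055, adjusted p = 0.392 from limma; exact permutation test, two-sided, p = 0.057). Its further probe sets gave -0.076, -0.063 and 0.11. The last was a dim probe set, with means of 5.40 in Nestin-Pex5-/- and 5.30 in wild type mice (standard error 0.16). Ndufa1, whose probe set had the highest value in complex I, was at 12.66 ± 0.014 in Nestin-Pex5-/- and at 12.67 ± 0.038 in wild type mice (SD, n = 4 each).

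Ndufa4l2 gave the smallest p of all members. It is a relative of Ndufa4, a subunit once placed in complex I and now counted with complex IV, and in brain it is known as a marker of pericytes. Its values were 6.90, 6.74, 6.99 and 7.02 in Nestin-Pex5-/- and 7.04, 7.12, 6.99 and 7.35 in wild type arrays. Wild type replicate 3 lay within the Nestin-Pex5-/- range and replicate 4 was the highest. The log2 fold change was -0.21 (standard error 0.093, 95% interval -0.42 to -0.0042), with an adjusted p of 0.288 from limma and p = 0.057 in the exact permutation test. The mean of 6 markers of pericytes and smooth muscle was 8.32, 8.25, 8.38 and 8.31 in Nestin-Pex5-/- and 8.48, 8.42, 8.31 and 8.57 in wild type arrays, with 0 of the 6 called. At an unadjusted p under 0.05, 1 was lower, Rgs5 at -0.20 (adjusted p = 0.264 from limma). Wild type replicates 3 and 4 were the lowest and the highest of the wild type arrays in both, and replicate 4 also had the highest mean over all genes. Among Nestin-Pex5-/- arrays, replicate 8 was the lowest in both. The highest was replicate 10 for Ndufa4l2 and replicate 9 for the markers. The part of these cells in the value of Ndufa4l2 was not tested. Ndufa4 was at 12.56 ± 0.066 in Nestin-Pex5-/- and 12.56 ± 0.046 in wild type mice (SD, n = 4 each).

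Complex II, or succinate dehydrogenase, belongs both to the chain and to the tricarboxylic acid cycle. All 4 subunits had an estimate below 0, as did 61.7% of all genes, and none passed. Sdha, the flavoprotein that oxidises succinate, had values of 11.99, 11.99, 11.89 and 11.86 in Nestin-Pex5-/- and of 12.04, 11.98, 11.98 and 12.06 in wild type arrays. Nestin-Pex5-/- replicates 9 and 10 lay below all wild type arrays, while replicates 7 and 8 lay within their range. The log2 fold change was -0.086 (standard error 0.056, adjusted p = 0.484 from limma; exact permutation test, two-sided, p = 0.171). The iron-sulphur subunit Sdhb was at -0.053 (standard error 0.058, adjusted p = 0.685), and the membrane anchors Sdhc and Sdhd at -0.00035 and -0.041 (standard errors 0.065 and 0.067).

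Complex III passes electrons from ubiquinol to cytochrome c. Uqcrfs1, the Rieske iron-sulphur protein, had values of 11.52, 11.53, 11.50 and 11.45 in Nestin-Pex5-/- and of 11.57, 11.55, 11.53 and 11.70 in wild type arrays. The ranges met at Nestin-Pex5-/- replicate 8 and wild type replicate 3. The log2 fold change was -0.084 (standard error 0.058, adjusted p = 0.511 from limma; exact permutation test, two-sided, p = 0.057). The core proteins Uqcrc1 and Uqcrc2 were at 0.0047 and -0.040. The 5 small subunits ran from -0.046 in Uqcrb, whose probe set had the highest value in this complex, to 0.043 in Uqcr11.

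In complex IV, cytochrome c oxidase, several subunits exist as a widely used form and as forms known mainly from lung, heart and muscle or testis. The 9 widely used forms and single subunits ran from -0.12 in Cox7c to 0.023 in Cox6b1. The further probe set of Cox7c gave 0.12, and both of its probe sets were dim. Cox4i1 was at 13.34 ± 0.023 in Nestin-Pex5-/- and at 13.33 ± 0.068 in wild type mice, and Cox6a1 at 13.90 ± 0.017 and 13.89 ± 0.038 (SD, n = 4 each, Nestin-Pex5-/- before wild type). Cox6c, Cox7a2 and Cox8a were at -0.062, 0.0019 and -0.045 (standard errors 0.050, 0.062 and 0.050). Their further probe sets gave 0.081 for Cox6c, -0.043 for Cox7a2, and -0.061 and 0.0070 for Cox8a. Cox7a2l, which helps to join complexes III and IV in supercomplexes, was at 0.054 (standard error 0.064).

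The 7 restricted forms were read from probe sets with means of 5.34 to 8.88, where the share of background in the value is unknown. Cox8b and Cox7a1, known from heart and skeletal muscle, were at -0.14 and 0.037 (standard errors 0.087 and 0.13). Cox4i2, the lung form, was at -0.12 (standard error 0.11), and Cox6b2, Cox7b2 and Cox8c, known from testis, at -0.10, 0.029 and -0.11. Cox6a2, the form of heart and muscle, had the largest positive estimate of all members, 0.16 (standard error 0.19, adjusted p = 0.719 from limma). Its values were 8.99, 9.20, 8.90 and 8.75 in Nestin-Pex5-/- and 8.32, 8.93, 8.61 and 9.34 in wild type arrays. The wild type arrays spanned the whole Nestin-Pex5-/- range, with replicate 4 the highest. Cox7a1 was likewise highest in wild type replicate 4. This array also had the highest mean over all genes, 7.64, where wild type replicates 1 to 3 had 7.57 to 7.58. The mean of 4 markers of muscle and brown fat was 5.36 to 5.51 in Nestin-Pex5-/- arrays, 5.83 in wild type replicate 4 and 5.45 to 5.60 in replicates 1 to 3, and its part in these values was not tested. The markers had a median value of 5.37, where the share of background is unknown as well.

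ATP synthase is built from a catalytic head with a central stalk, a rotating ring of c subunits, a peripheral stalk and small membrane subunits. The 5 genes of the head and central stalk ran from -0.049 in Atp5c1 to 0.075 in Atp5e. Atp5b, the catalytic beta subunit, was at 13.58 ± 0.035 in Nestin-Pex5-/- and at 13.60 ± 0.035 in wild type mice (SD, n = 4 each). Atp5g1, Atp5g2 and Atp5g3 encode the same mature c subunit and were at 0.034, 0.049 and -0.050 (standard errors 0.059, 0.063 and 0.053). All 4 genes of the peripheral stalk had an estimate below 0 (61.7% of all genes did), between -0.039 in Atp5o and -0.017 in Atp5j, with 0 called.

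Atp5k and Atp5l encode the e and g subunits, which lie side by side in the membrane where ATP synthase dimers form. Atp5k had values of 12.31, 12.23, 12.33 and 12.29 in Nestin-Pex5-/- and of 12.36, 12.36, 12.38 and 12.38 in wild type arrays. Atp5l had values of 12.26, 12.23, 12.21 and 12.19 in Nestin-Pex5-/- and of 12.30, 12.30, 12.30 and 12.28 in wild type arrays. In both genes every Nestin-Pex5-/- array lay below every wild type array, by a small amount. The log2 fold changes were -0.077 and -0.074 (standard errors 0.050 and 0.048), or folds of 0.948 and 0.950, and the adjusted p-values from limma 0.479 and 0.488. The exact permutation test gave p = 0.029 for each, the smallest that 4 arrays against 4 allow. Any gene whose arrays lie fully apart gets this p, so it adds nothing to the separation. Arrays lay fully apart in 11.1% of all genes, downward in 4.51%. Of the further probe sets of Atp5k, 1 gave -0.067 and the other 0.0062, and in both the arrays of the genotypes overlapped. The remaining small membrane subunits Atp5j2, Atp5md and Atp5mpl were at 0.0098, -0.043 and 0.0079.

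**Figure D3:**
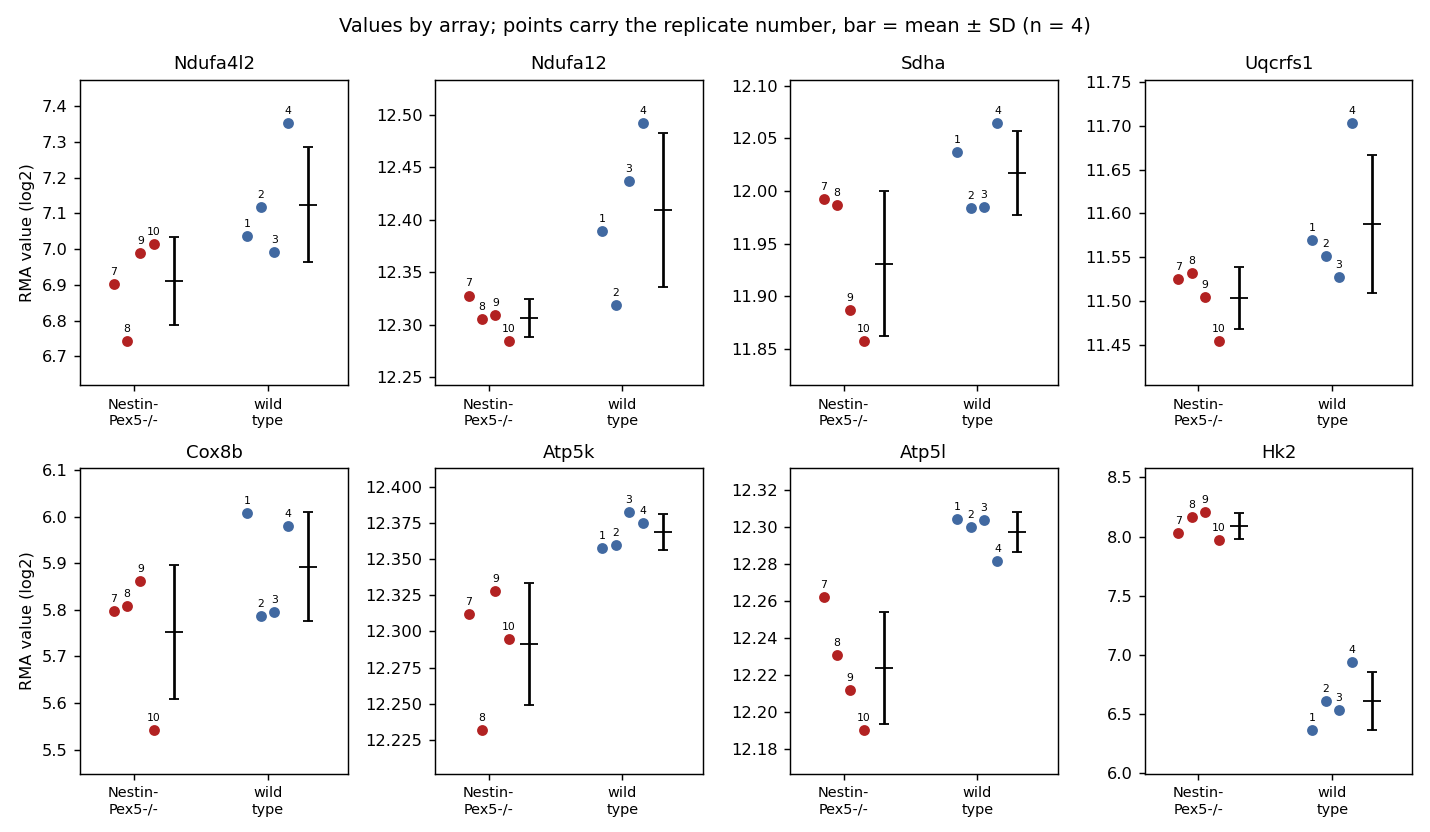
RMA values (log2) in each array for the member with the smallest p in each complex, for Ndufa12, for both members whose genotypes did not overlap (Atp5k and Atp5l) and for the glycolytic gene Hk2, with the replicate number at each point and the mean ± SD (n = 4 arrays per genotype). The genotypes lie apart in Atp5k and Atp5l, by log2 fold changes of -0.077 and -0.074, and in Hk2, by 1.48, and each panel has its own axis span.

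The 81 genes have 164 probe sets of their own, 83 of them not used above, and in a fit over all 34958 probe sets of single genes 0 of the 164 were called, against 3.47% of all probe sets. At an unadjusted p under 0.05 there were 1 higher and 1 lower among the 83, against 7.79% and 7.04% of all probe sets. These were a dim probe set of Atp5g2 (0.30, adjusted p = 0.149 from limma) and 1 of Sdha (-0.22, adjusted p = 0.190). Of the 81 main probe sets, 44 end in _s_at, _x_at or _a_at and can bind related transcripts or several forms of 1 transcript. Ndufb4 and Cox7c were read from probe sets with means of 5.69 and 7.11, and 9 probe sets shared with other genes, among them 2 that the annotation gives to Ndufb4 and its copies, were not used.

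The median log2 fold change was -0.055 in 14 assembly factors of complex I and -0.040 in 30 of complexes II to V. In these lists 0 genes were called, against 4.77% of all genes. The same held for 21 genes of the tricarboxylic acid cycle and pyruvate dehydrogenase (-0.0066), 15 mitochondrial carriers (-0.036), 18 genes of import and the inner membrane (-0.020), 20 genes of mitochondrial biogenesis (0.00077) and 4 uncoupling genes (-0.11). At an unadjusted p under 0.05, limma gave 1 higher gene in the tricarboxylic acid cycle list, 1 lower among the carriers and 1 lower among the uncoupling genes, and 0 in the others. Of all genes, 8.85% were higher and 8.01% lower at this cut. The coactivator Ppargc1a, picked out as a regulator of mitochondrial genes, was at -0.16 (standard error 0.092, adjusted p = 0.428 from limma). Cycs, which encodes cytochrome c, and Cyc1, the cytochrome c1 of complex III that the symbol rule misses, were at -0.050 and -0.018. ND5, a complex I subunit encoded in the mitochondrial genome, was at 14.05 ± 0.049 in Nestin-Pex5-/- and at 14.09 ± 0.15 in wild type mice (SD, n = 4 each; adjusted p = 0.861 from limma), and it was chosen after the list of measured genes was seen.

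Calls were made in 3 related lists, 1 gene in each and all higher, where 3.98% of all genes were called higher. Of 31 cytosolic ribosome genes Rps9 was called, at 0.24 (adjusted p = 0.0420 from limma). In this list 27 estimates were above 0, with a median log2 fold change of 0.058, and at an unadjusted p under 0.05 there were 9 higher and 0 lower, against 8.85% and 8.01% of all genes. The arrays lay fully apart upward in 10 of the 31 and downward in 1, against 6.63% and 4.51% of all genes. In the list of 74 genes of the mitochondrial ribosome 45 estimates were below 0, against 61.7% of all genes. The arrays lay fully apart upward in 2 of the 74 and downward in 3. Of the 74, 1 was called higher and 0 lower, and the higher gene was Mrps6 (at an unadjusted p under 0.05, 2 higher and 0 lower). It was at 10.11, 10.24, 10.18 and 10.14 in Nestin-Pex5-/- and at 9.92, 9.72, 9.77 and 9.97 in wild type arrays, a fold of 1.25 (0.32 ± 0.070 on the log2 scale with its standard error) and an adjusted p of 0.0301 from limma. In the list of 18 glycolytic genes 14 estimates were below 0, with a median log2 fold change of -0.036. The arrays lay fully apart upward in 2 of the 18 and downward in 2. Of the 18, Hk2 was called (at an unadjusted p under 0.05, 3 higher and 0 lower). This hexokinase binds the outer mitochondrial membrane and was at 8.03, 8.16, 8.21 and 7.97 in Nestin-Pex5-/- and at 6.36, 6.61, 6.53 and 6.94 in wild type arrays. It rose by a fold of 2.79 (1.48 ± 0.12 on the log2 scale with its standard error), at an adjusted p of 4.4e-05 from limma, while Hk1, the main hexokinase of brain, was at -0.014 (adjusted p = 0.925). The microglial markers that rose in the same arrays are given above, and their part in the values of Hk2 was not tested.

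The members also varied from array to array within a genotype, by a standard deviation of their mean of 0.026 in Nestin-Pex5-/- and 0.053 in wild type arrays, against a difference of -0.025 between the genotypes. Wild type replicate 4 had the highest wild type value in 55 of the 81 genes and wild type replicate 2 the lowest in 57. Among Nestin-Pex5-/- arrays, replicate 8 was the highest in 47 and replicate 10 the lowest in 45. The median deviation of the members from the mean of their genotype was 0.061 in wild type replicate 4 and -0.063 in replicate 2, and 0.039 and -0.033 in Nestin-Pex5-/- replicates 8 and 10. Over all genes it was 0.071 in wild type replicate 4 and between -0.021 and 0.011 in the other arrays. The lists for other mitochondrial functions were also highest, among wild type arrays, in replicate 4, at 9.70 for the mitochondrial ribosome and 11.03 for the carriers, where wild type replicates 1 to 3 had 9.53 to 9.61 and 10.88 to 10.93.

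**Figure D4:**
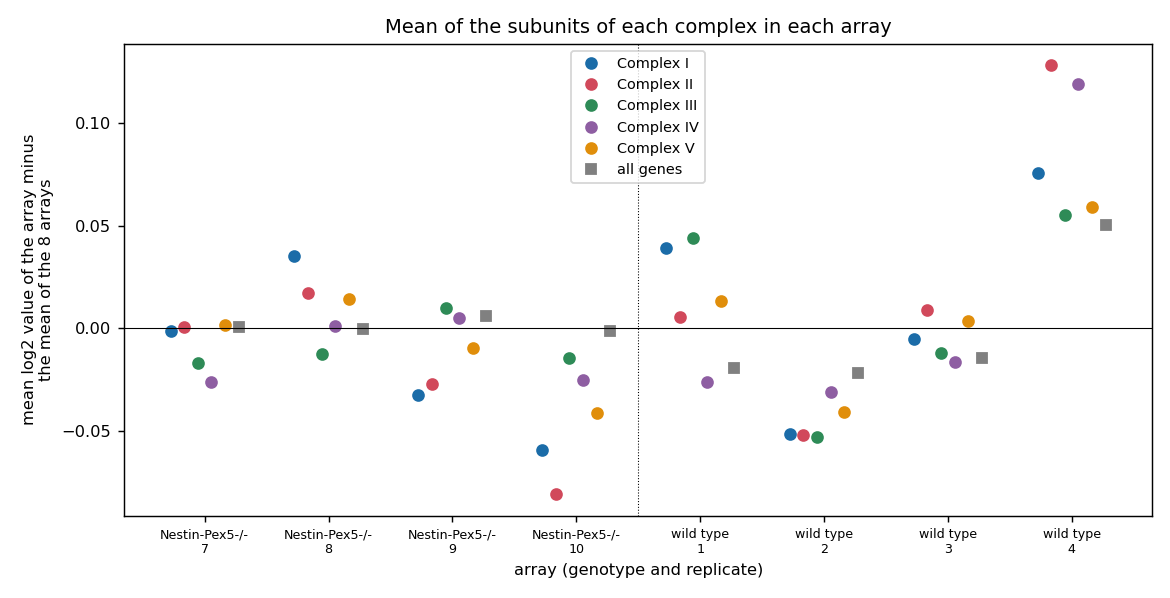
Mean log2 value of the subunits of each complex in each array, minus the mean over the 8 arrays, with all genes in grey squares. Wild type replicate 4 stands highest for every complex, and the Nestin-Pex5-/- arrays lie within the range of the wild type arrays except replicate 10 in complexes I, II and V.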

How the data were processed

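RNA of 8 hypothalami was hybridised to Affymetrix whole-genome mouse expression arrays, 1 per mouse. The authors deposited log2 values for 45101 probe sets, computed with RMA (background removal, quantile normalization, median polish). No RMA version, software or filter is given in the sources used here. In the probe annotation, 34958 probe sets name a single gene, 932 name several and 9211 none, and only those with 1 gene were used (34754 of them matched RefSeq by gene identifier). The brightest probe set represented each of the 18194 genes. For each gene, a linear model of genotype without covariates was fitted and its variance moderated with lmFit and eBayes of limma 3.58.1 (R 4.3.3). P-values were two-sided, adjusted by Benjamini-Hochberg over all genes and called under 0.05. The procedure was tested on simulated data. Exact two-sided permutation tests ran over the 70 assignments of the arrays. Python 3.11.15 and matplotlib 3.10.9 made the figures. The members and lists were chosen with earlier results of these data known, so no list was tested as a set.

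Named were, per complex, members past the threshold or else the 2 with the smallest p, the brightest member, a set of isoform families and called members of the related lists. No depth applies to arrays, and their number limits the precision. Alternatives covered filters, probe sets, scaling, variance models, array weights, the threshold and each array left out. No labels give a batch or scan date, and nothing says whether these mice were littermates.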

Additional observations from a re-analysis of the deposited data

Results flagged for a closer look

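Single arrays stood apart from the other 3 of their genotype, by a gap large against the range of the group, in 3 named genes and 2 complex means. Cox7a1 was at 6.56 in wild type replicate 4 against 5.94 to 6.03 in the others, and Cox7b2 at 5.46 in wild type replicate 1 against 5.26 to 5.30. Atp5g3 was at 13.42 in Nestin-Pex5-/- replicate 10 against 13.50 to 13.51. The mean of complex III was 12.0002 in Nestin-Pex5-/- replicate 9 against 11.97 to 11.98, and that of complex IV 10.20 in wild type replicate 4 against 10.05 to 10.06. Over all 81 members such a gap was met by 2 in Nestin-Pex5-/- and 3 in wild type arrays, where chance flags about 1 in 20 groups.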

How the results depend on the processing

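Under all 20 alternatives run for the counts, 0 members were called higher and 0 lower, with array weights included, under which 2050 of all genes were called. Among the 20, the stricter threshold of 0.01 could not add a call. The choice of members by the reference symbol reused the main fit, so neither is a separate check. The adjusted p of 30 named members stayed above the threshold in all of their 559 alternatives, not all of them separate fits. The smallest was 0.0871 (Atp5l, tested on its own variance without moderation). With 1 array left out at a time, the median log2 fold change of the members ran from -0.043 (without wild type replicate 2) to 0.00069 (without wild type replicate 4). It was 0.024 with the arrays scaled to 6 measured reference genes, and the median of all genes was then 0.0075. The mean of these 6 was itself lower in every Nestin-Pex5-/- array (12.453 to 12.500) than in every wild type array (12.503 to 12.541), and their difference of -0.041 is the size of the move. Without wild type replicate 4 and Nestin-Pex5-/- replicates 9 and 10, an alternative chosen after seeing the data, the median of the members moved to 0.027. Replicates 9 and 10 had lower means of the members (11.39 and 11.36) than Nestin-Pex5-/- replicates 7 and 8 (11.40 and 11.42). The counterpart without replicates 7 and 8 in place of 9 and 10 was also run, and its median is not given here. The sign of the median is thus not settled. Leaving out genes below the median level kept 73 members, and leaving out _s_at, _x_at and _a_at probe sets kept 65. No paired analysis was possible because the genotypes share no replicate number. Probe sets near the top of the scale may be compressed, which was not tested.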
